A study of Mus musculus with 25 samples.

Results

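Respiratory complex I was examined in RNA-seq of murine hematopoietic stem cells, as the 46 genes of the table of 23116 genes whose symbols start with Ndufa, Ndufb, Ndufc, Ndufs or Ndufv. GENCODE lists 45 of the 46 as protein-coding genes, and the other, Ndufab1-ps, as a processed pseudogene. HSLAM cells, the LSK+ CD150+ CD48- stem cell population, were sorted from the bone marrow of 3 Znf143 f/f x Rosa26ERT2-Cre- mice, called Znf143 f/f, and 3 Znf143 f/f x Rosa26ERT2-Cre+ mice, called Znf143 -/-. All were adult male C57BL/6 mice from litter pairs, and both genotypes received tamoxifen. Which libraries form a pair is not given in the sources used here. The controls lacked Cre, so that Cre with tamoxifen and the loss of Znf143 cannot be told apart, and Rosa26 drives Cre in all tissues, not in blood alone. The sample labels name the deleted genotype after CTCF, whereas the study describes a deletion of Znf143 with loxP sites around exon 1.

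Complex I is the entry point of NADH electrons into the mitochondrial respiratory chain, where it passes them to ubiquinone and pumps protons. Its core subunits are conserved from bacteria. Those of the membrane arm are encoded in mitochondrial DNA, and those of the matrix arm, together with the many accessory subunits and the assembly factors, are encoded in the nucleus. Hematopoietic stem cells are known for relying little on respiration while quiescent.

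The levels given here are FPKM (fragments per kilobase of gene, scaled to library depth) rescaled by 1 size factor per library, and log2 fold changes are Znf143 -/- minus Znf143 f/f on the log2(FPKM + 0.1) scale. Adjusted p is the Benjamini-Hochberg value over all tested genes. Fragments assigned to genes numbered 38643255 to 57895793 per library. Zfp143, the mouse symbol of Znf143, was covered by 412, 760 and 563 fragments in Znf143 f/f mice and by 24, 51 and 55 in Znf143 -/- mice, a log2 fold change of -3.50 (SE 0.239, limma adjusted p = 0.00100). The log2 fold change of Ctcf was -0.13 (SE 0.0961, limma adjusted p = 0.468). Of 8 stem cell markers, 6 had values below 0 and the median log2 fold change was -0.35. In Znf143 -/-, Ly6a was called higher (1.13) and Mecom lower (-0.55). The voom variant of limma called 2 lower, as it did 745 of all 19279 tested genes. Cd48 and Flt3, which mark cells outside the gate, were higher by 0.97 and 1.59 on the log2 scale. Of 6 neutrophil markers, 4 were called higher, and their summed FPKM was 41.0 to 79.0 in Znf143 f/f and 121 to 150 in Znf143 -/-. Of 5 lymphoid markers, 2 had a mean of 0.1 FPKM or more and were tested. Dntt was called higher (log2 fold change 4.88). The other went the other way, at -0.64, was not called, and had all Znf143 -/- libraries below all Znf143 f/f libraries. Il7r was at 0 in 4 libraries, and Cd79a and Cd3e had at most 10 fragments in any library. The summed FPKM of 5 erythroid markers was highest in the second Znf143 f/f library, at 93.2 against 53.0 to 61.9 in the others. That of 4 megakaryocyte markers was 415 to 515 in Znf143 f/f and 546 to 874 in Znf143 -/-. The part of these cells in the results below was not tested, and in sorted bulk samples fewer cells of a type and less RNA per cell cannot be told apart.

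Promoters are shown for 3 members because these genes are called or stand out below and because all 3 are on the list of genes that the study tied to strong ZNF143 association. Expression in these same libraries went into that list. RefSeq entries on GRCm38.p6 were found for 40 of the 46 members. Each line holds, 5′ to 3′, the 250 bases before the RefSeq start of the gene, less any bases inside the GENCODE gene model. Such bases were left out of the Ndufv1 line alone, which keeps 199 bases. Capitals mark matches to ACTACANNT or to ACANNTCCC, letters that resemble the middle of the ZNF143 binding sequence and share the stretch ACANNT. These 2 motifs were chosen after the sequences had been seen.
Ndufa3, chr7:3617123-3617372, plus strand: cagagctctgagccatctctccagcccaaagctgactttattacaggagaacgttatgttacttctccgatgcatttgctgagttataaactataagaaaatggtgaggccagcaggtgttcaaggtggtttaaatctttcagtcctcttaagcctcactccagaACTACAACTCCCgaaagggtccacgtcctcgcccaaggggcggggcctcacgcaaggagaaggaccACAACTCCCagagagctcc
Ndufv1, chr19:4012807-4013005, minus strand: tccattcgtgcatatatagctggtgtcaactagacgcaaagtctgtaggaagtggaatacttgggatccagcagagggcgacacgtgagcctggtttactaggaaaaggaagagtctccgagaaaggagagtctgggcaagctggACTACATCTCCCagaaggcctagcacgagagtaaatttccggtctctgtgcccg
Ndufa9, chr6:126849145-126849394, minus strand: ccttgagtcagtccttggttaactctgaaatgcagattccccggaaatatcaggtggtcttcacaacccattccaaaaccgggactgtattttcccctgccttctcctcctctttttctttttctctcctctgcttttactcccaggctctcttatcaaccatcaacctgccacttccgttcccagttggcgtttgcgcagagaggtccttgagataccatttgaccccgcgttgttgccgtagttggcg
ACTACANNT occurred, on either strand, in 2 of the 40 members, Ndufa3 and Ndufv1, and in 4.16% of 32851 promoters. The stretch searched ran from 250 bases before to 50 bases after the start in every promoter. ACANNTCCC occurred in Ndufa3, at 82 and at 19 bases before the start, in Ndufv1, at 102 bases before it, and in Ndufaf5, compared with 6.28% of all promoters. These positions count from the RefSeq start, so the Ndufv1 match lies nearer to the end of its shortened line. The Ndufa9 stretch has neither. The parts of the motif chosen earlier, CCCAGNATG and ACTACAATT, were found in 2 members (Ndufab1 and Ndufv3, 2.04% of all promoters) and in none (0.393%). A match is a stretch of letters and not a binding site, and ChIP-seq was not analysed here.

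Most complex I transcripts differed little between the genotypes. With limma across 19279 genes, all 46 members passed the filter on low values, 1 was lower and 1 was higher in Znf143 -/- at an adjusted p under 0.05, and 44 were not called. The lower gene was Ndufa3 and the higher was Ndufa9. Of all tested genes, 2.99% were called lower and 3% higher, so that the members' counts lay close to the background. An unadjusted p under 0.05 was reached by 4660 of the 19279 tested genes and by 4 members. With voom, 745 of all tested genes were called lower and 656 higher, with 1 member in each direction. The median log2 fold change of the members was 0.02, against 0.01 over all tested genes, and 36 of the 46 lay within 0.2 of 0. The 95% interval of a member, not adjusted for the number of genes, reached 0.41 on the log2 scale to either side at the median. Smaller changes than this could not be told from 0 in a typical member, and a call at the adjusted threshold needs a larger change still. Only Ndufa3 and Ndufs5 had a fitted fold of 1.5 or more in either direction. In 1 member, Ndufa3, all Znf143 -/- libraries lay below all Znf143 f/f libraries, as in 15.3% of all tested genes. In 5 members, Ndufa10, Ndufaf6, Ndufv1, Ndufs3 and Ndufa9, they all lay above, as in 15.4% of all tested genes.

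**Figure D1:**
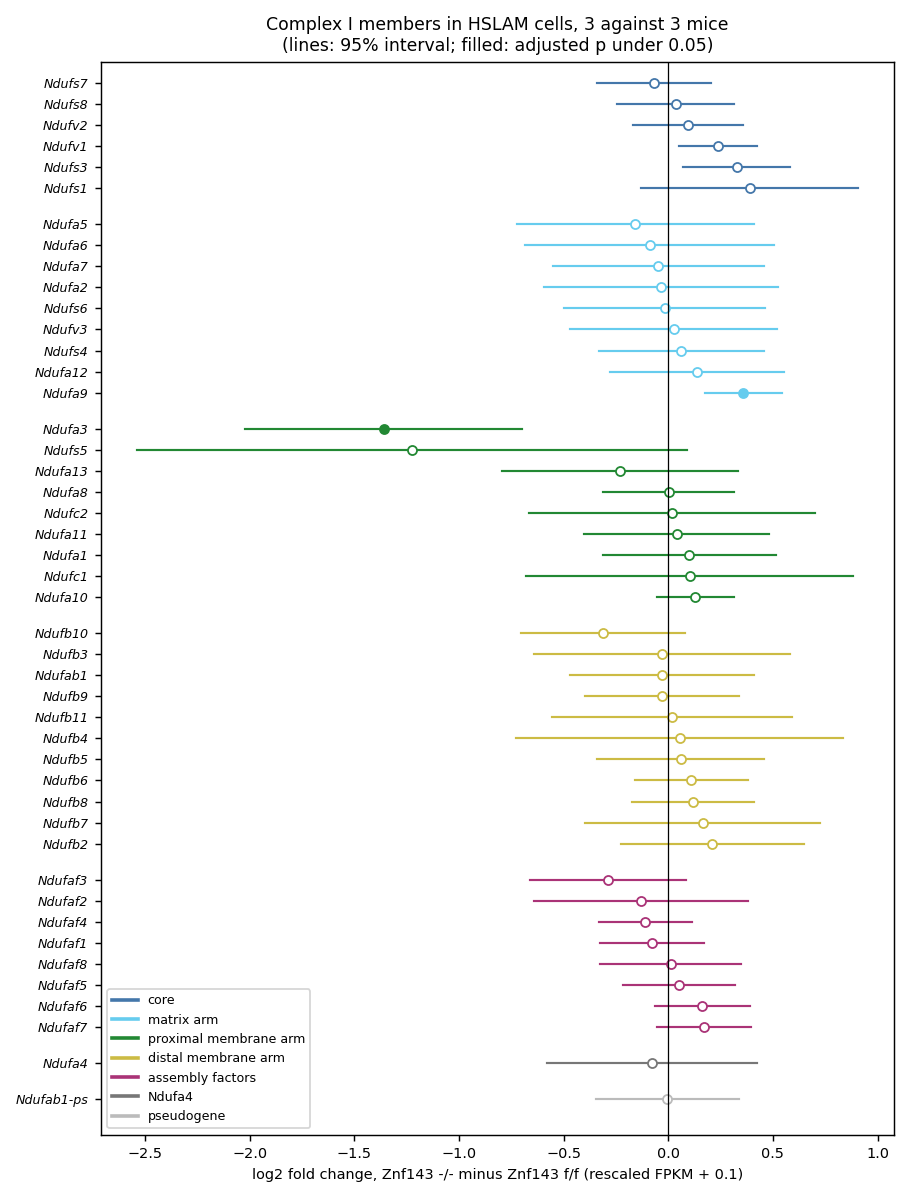
Log2 fold change of 45 of the 46 members, Znf143 -/- minus Znf143 f/f, with lines for the 95% interval from limma (n = 3 each), colours for the place in complex I and filled points for an adjusted p under 0.05. Ndufa3 lies at -1.36 and Ndufa9 at 0.36, Ndufs5 lies at -1.23 with an interval across 0, and most others sit within 0.2 of 0.

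Ndufa3 (ENSMUSG00000035674.13), on chromosome 7 of GRCm38 from 3617373 to 3620327 on the plus strand with 4 exons, encodes a small accessory subunit of the proximal membrane arm. It measured 324, 535 and 312 FPKM in Znf143 f/f mice and 203, 128 and 123 FPKM in Znf143 -/- mice. The genotypes did not overlap, and the second Znf143 f/f library and the first Znf143 -/- library were the highest of their groups. The mean fell from 390 ± 126 to 151 ± 45.2 (SD, n = 3 each), to 38.8% of Znf143 f/f, and the values rest on 6416 to 26931 fragments per library. This was a log2 fold change of -1.36 (SE 0.277, 95% interval -2.02 to -0.70, limma adjusted p = 0.0406). A two-sided exact permutation test gave p = 0.1, the smallest that 3 mice against 3 allow. The call was kept in 11 of 17 alternatives, with adjusted p from 0.00117 to 0.161 and a log2 fold change that stayed negative. It was lost when the first or the third Znf143 f/f or the second or the third Znf143 -/- library was left out, with adjusted p from limma of 0.0966, 0.0976, 0.131 and 0.161, when the variance trend was left out of the fit (0.0622) and with the replicate number as a block (0.116). The gene shares 4 exon bases with Tfpt on the other strand, whose log2 fold change was 0.05.

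Ndufa9 (ENSMUSG00000000399.10), on chromosome 6 from 126821721 to 126849136 on the minus strand with 11 exons, encodes an accessory subunit at the junction of the matrix and membrane arms, near the site where ubiquinone binds. It measured 118, 125 and 118 FPKM in Znf143 f/f and 155, 154 and 155 in Znf143 -/- libraries. The genotypes were apart, and the Znf143 -/- libraries were almost at the same level. The mean rose from 121 ± 3.75 to 155 ± 0.399 (SD, n = 3 each), with a log2 fold change of 0.36 (SE 0.0764, 95% interval 0.18 to 0.54, limma adjusted p = 0.0450). The exact permutation test gave p = 0.1, the smallest possible. The call was kept in 9 of 17 alternatives, with adjusted p from limma of 0.00539 to 0.217. It was lost without the first or the third Znf143 f/f library (adjusted p = 0.176 and 0.203 from limma) and without the second or the third Znf143 -/- library (0.161 and 0.212). It was also lost with the FPKM as deposited (0.114), after quantile normalization (0.0802), without the variance trend (0.0930) and with the replicate block (0.217). Ndufa9 shares 67 exon bases with 1700018A23Rik on the other strand, for which no level is given.

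The core subunits of the matrix arm carry the flavin and the iron-sulfur clusters. None of the 7 was called by limma or by its voom variant on fragments. Of the 7, 2 had an unadjusted p under 0.05, against 4660 of the 19279 genes in the fit. The log2 fold changes of the 7 ran from -0.07 to 0.39, with a median of 0.09. Ndufv1, which binds NADH and the flavin, had an FPKM of 99.1, 94.4 and 95.4 in Znf143 f/f and 109, 118 and 115 in Znf143 -/- libraries. All Znf143 -/- libraries were thus above all Znf143 f/f libraries, with a log2 fold change of 0.24 (SE 0.0775, limma adjusted p = 0.126). Ndufs3, a subunit that enters the matrix arm early in assembly, had 50.8, 63.8 and 51.4 in Znf143 f/f and 68.7, 68.8 and 69.7 in Znf143 -/- libraries. Here too the groups were apart, and the second Znf143 f/f library came nearest to the other genotype. Its log2 fold change was 0.33 (SE 0.107, limma adjusted p = 0.127), and without that library it was 0.43 (adjusted p = 0.0205). Ndufs3 shares 88 exon bases with Kbtbd4 on the other strand.

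Ndufs1, the largest core subunit, had an FPKM of 11.6, 7.67 and 11.1 in Znf143 f/f and 10.1, 15.5 and 14.3 in Znf143 -/- libraries. It was the lowest protein-coding member in level, and its libraries ran opposite to most members, lowest in the second Znf143 f/f and the first Znf143 -/- library. This gave a log2 fold change of 0.39 (SE 0.217, 95% interval -0.13 to 0.91, limma adjusted p = 0.330). The gene shares 489 exon bases with Ino80dos and 9 with Eef1b2, both on the other strand.

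Ndufs7, at the pocket in which ubiquinone is reduced, had an FPKM of 257, 283 and 241 in Znf143 f/f and 275, 238 and 232 in Znf143 -/- libraries, with a log2 fold change of -0.07 (SE 0.114, limma adjusted p = 0.767). The libraries of the genotypes were intermingled. Ndufs8, which holds iron-sulfur clusters between Ndufs1 and Ndufs7, had 421, 438 and 407 against 489, 414 and 399, and a log2 fold change of 0.04 (SE 0.118, limma adjusted p = 0.890). Ndufv2, the partner of Ndufv1, had 225, 251 and 227 against 280, 237 and 235, with 0.09 (SE 0.110, limma adjusted p = 0.653). In these 3 subunits the 95% intervals stayed within -0.34 and 0.36.

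**Figure D2:**
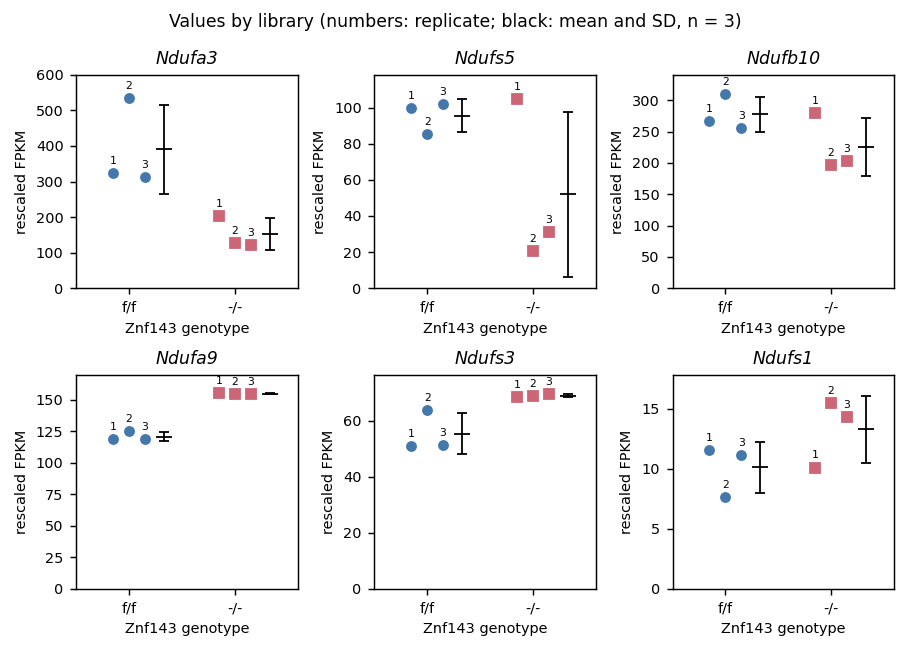
Rescaled FPKM of 6 members by Znf143 genotype, each point 1 library with its replicate number and black bars for the mean and SD (n = 3). Ndufa3 was lower and Ndufa9 higher in all Znf143 -/- libraries, Ndufs5 was low in the second and the third of them alone, and the groups of Ndufb10 and Ndufs1 overlapped.

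Among the 9 accessory subunits of the matrix arm, 1 was called, Ndufa9, and the other 8 lay between -0.16 (Ndufa5) and 0.14 (Ndufa12). The proximal membrane arm, with 9 accessory subunits, held the largest spread, from -1.36 to 0.13, with a median of 0.02. Besides Ndufa3, no subunit of this arm was called or had an unadjusted p under 0.05. Ndufs5, which sits on the intermembrane face of this arm, had an FPKM of 99.6, 85.1 and 102 in Znf143 f/f and 104, 20.6 and 31.1 in Znf143 -/- libraries. The first Znf143 -/- library was at the level of the controls and above each of them, whereas the other 2 were well below every control. Zfp143 had its fewest fragments, 24 and not scaled to library depth, in this first library, and a link to the level of Ndufs5 was not tested. The log2 fold change was -1.23 (SE 0.550, 95% interval -2.54 to 0.09, limma adjusted p = 0.232), and the exact permutation test gave p = 0.4. Without the first Znf143 -/- library, it was -1.91 (SE 0.192, limma adjusted p = 0.0102). The gene lies on chromosome 4 from 123712710 to 123718202 and was covered by 873 to 3987 fragments. RefSeq also lists a transcribed pseudogene, Ndufs5-ps, which may share reads with it.

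The distal membrane arm, with 11 members here, had a median log2 fold change of 0.06, with no call by limma or voom and no unadjusted p under 0.05. Ndufb10, on the intermembrane face of the distal arm, had an FPKM of 267, 309 and 256 in Znf143 f/f and 279, 196 and 202 in Znf143 -/- libraries. The second and the third Znf143 -/- libraries were below all controls and the first was among them. This gave a log2 fold change of -0.31 (SE 0.163, limma adjusted p = 0.301). Ndufb2, with 32.1, 41.7 and 31.3 against 51.1, 34.4 and 37.0, had a log2 fold change of 0.21 (SE 0.183, limma adjusted p = 0.537). Ndufb7 had 58.1, 85.2 and 59.0 against 102, 61.7 and 65.4, with 0.16 (SE 0.235, limma adjusted p = 0.718). In both, the rise of the mean came with a high first Znf143 -/- library, and without it the log2 fold changes were 0.04 and -0.06. Ndufab1, the mitochondrial acyl carrier protein, lay at -0.03.

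None of the 8 assembly factors was called by limma or voom or had an unadjusted p under 0.05, and their median log2 fold change was -0.03. Ndufaf3, which helps to build the ubiquinone module together with Ndufaf4, had an FPKM of 38.6, 43.6 and 38.1 in Znf143 f/f and 41.5, 28.8 and 29.4 in Znf143 -/- libraries. As in Ndufb10, the second and the third Znf143 -/- libraries lay below all controls. The log2 fold change was -0.29 (SE 0.156, limma adjusted p = 0.316), and without the first Znf143 -/- library it was -0.46 (adjusted p = 0.0317). Ndufaf3 shares 48 exon bases with Impdh2 on the other strand. Ndufaf4 itself had a log2 fold change of -0.11. Ndufaf7, an arginine methyltransferase that acts in assembly, had 18.6, 22.4 and 20.3 against 22.0, 23.9 and 22.9, with 0.17 (SE 0.0945, limma adjusted p = 0.322), and the groups overlapped. Ndufa4, named with complex I but since assigned to cytochrome c oxidase, had a log2 fold change of -0.08, and the pseudogene Ndufab1-ps one of 0.00 at an FPKM of 3.29 to 4.33.

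In level, the members spanned mean FPKM from 3.64 (Ndufab1-ps) to 928 (Ndufa1) in Znf143 f/f, with a median of 125. Ndufa1, Ndufa2, Ndufa4, Ndufc2 and Ndufa6 were highest, in the same order in both genotypes. At the low end, Ndufs1 followed Ndufaf5 at a mean of 16.8 ± 1.33 and Ndufaf7 at 20.4 ± 1.91 (SD, n = 3 each). Along this order, 39 of 45 neighbouring pairs had overlapping ranges over the Znf143 f/f libraries. Ndufa3 was 9th in Znf143 f/f. Levels depend on the listed gene length, which is long for Ndufab1 (6883 bases) for a short protein.

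The members varied together across libraries in a way that did not follow genotype. In 32 of the 46 (69.6%), the 2 highest libraries were the second Znf143 f/f and the first Znf143 -/- library, as in 15.3% of all tested genes. The median deviation of the members from their own mean over the 6 libraries was -0.10, 0.20 and -0.10 on the log2 scale in Znf143 f/f mice and 0.29, -0.16 and -0.13 in Znf143 -/- mice. It was 0.29 in the second Znf143 f/f and 0.39 in the first Znf143 -/- library in the accessory subunits of the matrix arm, 0.41 and 0.34 in those of the proximal membrane arm, and 0.04 and 0.12 in the core subunits. Complexes II to V showed the same order, with 0.23 and 0.37, and mitochondrial ribosomal proteins had 0.16 and 0.21. The pattern was not particular to mitochondrial genes, since 259 cytosolic ribosomal protein symbols had 0.47 and 0.35. These 2 libraries were the highest in 54.9% of complexes II to V, 63.0% of mitochondrial and 59.8% of cytosolic ribosomal protein symbols. Over the 46 members, the excess in these 2 libraries and log2 gene length had a Pearson r of -0.35 and a Spearman rho of -0.34, a description over genes that share the same libraries.

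**Figure D3:**
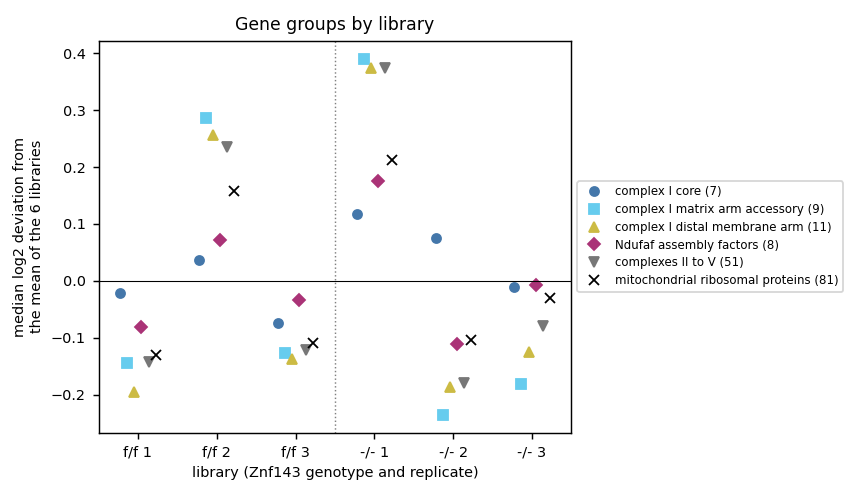
Median log2 deviation from the mean of the 6 libraries, by library, for 4 groups of complex I members, complexes II to V and mitochondrial ribosomal proteins, with the number of genes in brackets. The second Znf143 f/f library and the first Znf143 -/- library are above 0 in all of these groups, and least so in the 7 core subunits.

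**Figure D4:**
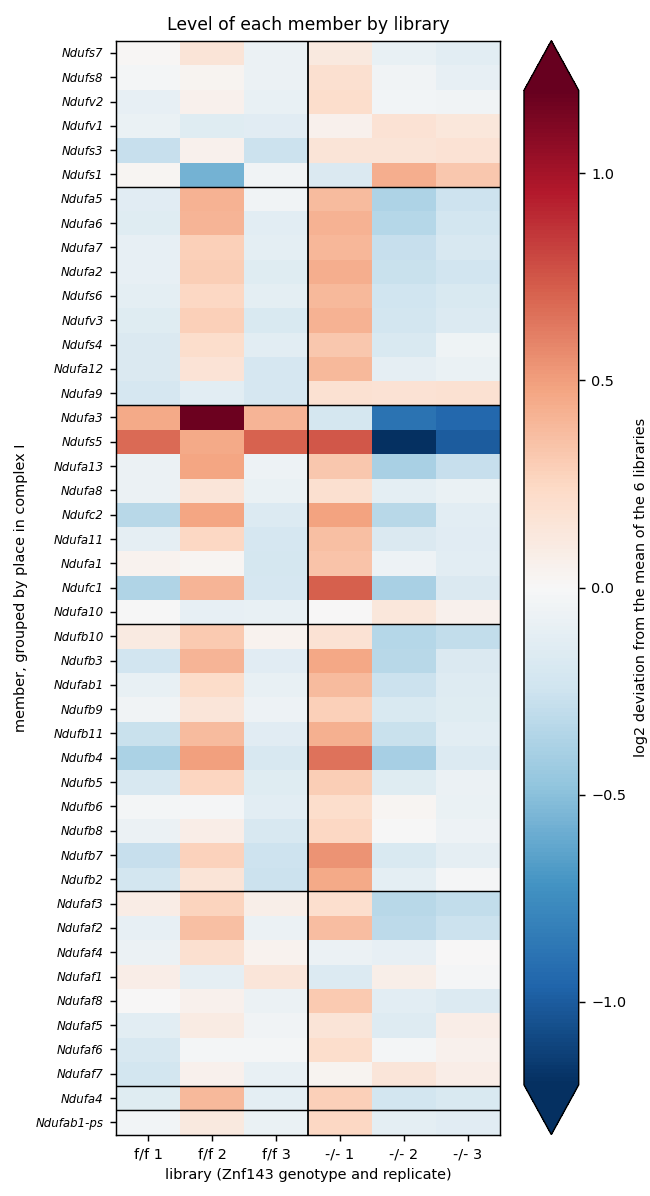
Log2 deviation of 45 of the 46 members (rows, grouped by place in complex I) from their means over the 6 libraries (columns), with colours cut at 1.2 to either side. Most rows are red in the second Znf143 f/f and the first Znf143 -/- library, while Ndufa3, Ndufa9 and Ndufv1 follow genotype.

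The fit was repeated with the mean log2 level of complexes II to V in each library as a covariate, an alternative chosen after the data had been seen. The median standard error of the members was 0.170 without and 0.0629 with the covariate. The fit then called 10.2% of all genes lower and 10.9% higher. Of the members, 3 were called lower, Ndufa3 (-1.39), Ndufb10 (-0.32) and Ndufa13 (-0.25), and 4 higher, Ndufv1 (0.24), Ndufs3 (0.32), Ndufa9 (0.36) and Ndufs1 (0.41). Their adjusted p from limma was 0.00117, 0.0340, 0.0335, 0.0160, 0.0355, 0.00539 and 0.00806. Ndufa13 shares 375 exon bases with Tssk6 on the other strand. The 3 core subunits among them, Ndufv1, Ndufs3 and Ndufs1, all had positive values. The share of members called was 6.52% lower and 8.70% higher, below the background in both directions.
When the first Znf143 -/- library was left out instead, 5.14% of all genes were called lower and 5.86% higher. Of the members, Ndufa3, Ndufs5 and Ndufaf3 were then called lower and Ndufa9 higher, and the members' median log2 fold change became -0.13.

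The study's list of genes with strong ZNF143 association holds 9 of the 46 members, Ndufa3, Ndufa5, Ndufa7, Ndufa9, Ndufab1, Ndufb9, Ndufb10, Ndufv1 and Ndufv2. The list was drawn up partly from expression in these same libraries and is no independent evidence of a change or of its direction. Being called here and being on the list are therefore not independent. Ndufa3 and Ndufa9, the called members, are both on it. The median log2 fold change of the 9 was -0.03 and that of the other 37 members 0.03.
Other promoter motifs of respiratory genes were also counted in the 40 members with an entry, on both strands. GCGCATGCG, recognised by NRF1, occurred in Ndufa8, Ndufa11, Ndufaf4 and Ndufaf5 (10%, against 1.75% of all promoters). AAGATGGCG, recognised by YY1, occurred in Ndufa9, Ndufaf8, Ndufc1, Ndufs4, Ndufs6 and Ndufs7 (15%, against 1.40%), in each after the start. CCGGAAGT, of ETS factors, occurred in Ndufs3 (2.5%, against 3.89%). With the exception of Ndufa9 and Ndufs3, the log2 fold changes of these genes lay between -0.11 and 0.10.

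Complex I also holds 7 subunits encoded in mitochondrial DNA, which form the core of the membrane arm. Of these, 2 were called lower in Znf143 -/- by limma and 4 by voom, none was called higher by either, 4 had an unadjusted p under 0.05, all of them lower, and the median log2 fold change was -0.60. mt-Nd4 had an FPKM of 1014, 862 and 900 in Znf143 f/f and 493, 452 and 404 in Znf143 -/- libraries. The groups were far apart, with a log2 fold change of -1.04 (SE 0.132, limma adjusted p = 0.00902). mt-Nd5 had 609, 636 and 633 against 438, 344 and 355, and a log2 fold change of -0.73 (SE 0.128, limma adjusted p = 0.0256). Both subunits belong to the distal part of the membrane arm, where protons are pumped. The call of mt-Nd4 was kept in 13 and that of mt-Nd5 in 12 of 17 alternatives. That of mt-Nd4 was lost without the third Znf143 f/f or the second or the third Znf143 -/- library (adjusted p = 0.0552, 0.0516 and 0.0686 from limma) and with the replicate block (0.0756). That of mt-Nd5 was lost without any of these 3 (0.121, 0.109 and 0.147 from limma) without the first Znf143 f/f library (0.0995) and with the replicate block (0.137).

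mt-Nd6 had an FPKM of 1098, 1428 and 1205 in Znf143 f/f and 864, 532 and 571 in Znf143 -/- libraries, with a log2 fold change of -0.95 (SE 0.220, limma adjusted p = 0.0565). mt-Nd2 had 1059, 1135 and 1079 against 901, 643 and 648, with -0.60 (SE 0.169, limma adjusted p = 0.0927). Neither passed the threshold in this fit, while 7 and 4 of the 17 alternatives called them, and in neither did the genotypes overlap. In 15.3% of all tested genes, all Znf143 -/- libraries lay below all Znf143 f/f libraries. mt-Nd3 had 69.7, 64.2 and 59.8 against 59.5, 56.3 and 50.7, with -0.22 (SE 0.0987, limma adjusted p = 0.235). mt-Nd1 had 3069, 2912 and 2826 against 3140, 3168 and 2824, with 0.05 (SE 0.178, limma adjusted p = 0.894). mt-Nd4l had 2 to 7 fragments per library, too few to compare. The mitochondrially encoded subunits of the other complexes, a list added after these values were seen, had 4 of 6 called lower with limma and 3 with voom. Of all 19279 tested genes, limma called 2.99% lower and voom called 745 lower. Those called with limma were mt-Atp8 (-1.05), mt-Cytb (-0.99), mt-Atp6 (-0.72) and mt-Co3 (-0.61), and the median of the 6 was -0.76. Mitochondrial genes have near-identical nuclear copies, mt-Nd6 lies on the other strand from the rest in libraries that do not mark strand, and the handling of reads that map more than once was not given in the sources used here, so that these values are uncertain.

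**Figure D5:**
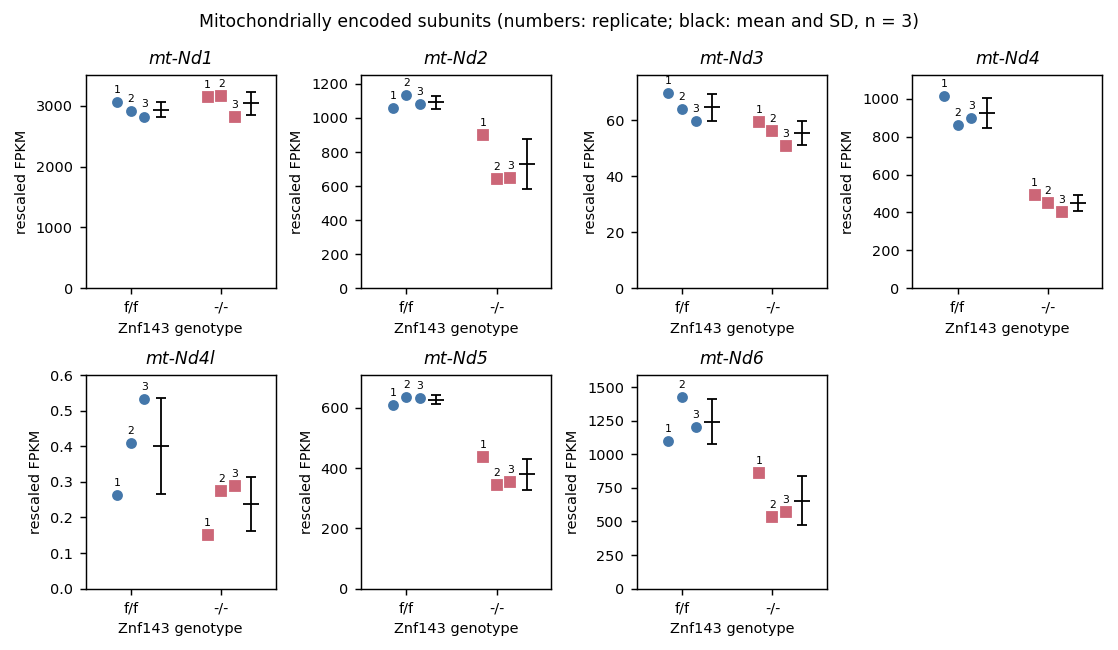
Rescaled FPKM of the 7 mitochondrially encoded complex I subunits by Znf143 genotype, each point 1 library with its replicate number and black bars for the mean and SD (n = 3). All Znf143 -/- libraries lie below all Znf143 f/f libraries for mt-Nd4, mt-Nd5, mt-Nd6, mt-Nd2 and, narrowly, mt-Nd3, as in 15.3% of all tested genes. The genotypes overlap for mt-Nd1 and mt-Nd4l.

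Of 12 further complex I assembly factors with other symbols, none was called with limma and 1 with voom, 2 had an unadjusted p under 0.05, and the median log2 fold change was 0.13. Foxred1, an assembly factor of the oxidoreductase family, came closest, at 9.54, 9.01 and 9.25 in Znf143 f/f and 11.3, 13.8 and 13.4 in Znf143 -/- libraries (log2 fold change 0.46, SE 0.102, limma adjusted p = 0.05001, just over the threshold). It was named after its value had been seen. Of 9 regulators of respiratory genes, such as Nrf1, Gabpa, Tfam and Yy1, none was called with limma and 1 with voom. An unadjusted p under 0.05 was found in 3 of the 9, and their median was -0.17. Of all 19279 tested genes, 4660 had an unadjusted p under 0.05, and voom called 745 lower and 656 higher.
The nuclear-encoded members stood close to the other complexes. Of 51 genes of complexes II to V, none was called with limma and 1 with voom, with a median of 0.08. An unadjusted p under 0.05 was found in 4 of the 51, against 4660 of all 19279 tested genes. Of 81 mitochondrial ribosomal protein symbols, 4 were called lower and 1 higher with limma, with a median of 0.07. The former were Mrps25 (-3.01), Mrpl34 (-1.23), Mrpl24 (-0.80) and Mrps26 (-0.62), and the latter the pseudogene Mrpl48-ps (0.60). Of all tested genes, limma called 2.99% lower and 3% higher. An unadjusted p under 0.05 was found in 12 of the 81, against 4660 of all 19279 tested genes. In the covariate fit, these lists do not serve as a comparison, since complexes II to V set the covariate.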

How the data were processed

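The authors sorted HSLAM cells from 3 Znf143 f/f and 3 Znf143 -/- mice, built libraries with a kit that does not mark strand (SMART-Seq v4 and Nextera XT) and used TrimGalore, STAR on GRCm38 and FeatureCounts for trimming, alignment and counting. They deposited 1 table with the FPKM of each library and gene lengths. Its columns of the authors' own DESeq2 comparison (mean normalized signal, log2 fold change, standard error, score of the Wald test, p-value and adjusted p-value) were deposited too and were not used. ChIP-seq and HiC samples were not analysed here.

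FPKM times length gave whole fragments, within 0.05, for 99.99% of 138696 values (138677). In the third Znf143 -/- library the FPKM divisor equals that of the second, 1.20 times too small, so median-of-ratios size factors over 19046 genes were used to rescale FPKM. Genes whose mean was 0.1 FPKM or more entered limma 3.58.1 as log2(FPKM + 0.1) (R 4.3.3, lmFit, eBayes with a variance trend), genotype alone in the design, Benjamini-Hochberg threshold 0.05. A count of 3 fragments was taken as the limit of detection. Of the members, 18 share exon bases with another gene in GENCODE M21 (13 with a gene of the table), which counting without strand cannot separate. The listed length of 35 members equals the exon bases of that release. Replicate numbers come from the labels, and the 3 pairs of same-numbered libraries correlated by -0.095, -0.088 and 0.035 and are not stated to be litter pairs, so no block was used. The fit was tested on simulated data. Python 3.11.15, numpy 2.4.6, pandas 2.3.3 and matplotlib 3.10.9 were used.

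Given with values in every library were the called members, the core subunits and, of the rest, the 3 with the largest rise and the 3 with the largest fall, and the 7 mitochondrially encoded subunits, while most other genes that are named, called genes of the fixed lists among them, have a log2 fold change only. One core subunit counts among the members but is not reported here on its own. The members, lists and motifs were chosen with earlier results of these data known. The alternatives were FPKM as deposited, division by the library's own fragments, quantile normalization, pseudocounts of 0.01 and 1, a filter at a mean of 1 FPKM or none, no variance trend, voom on recovered fragments, a replicate block and each library left out.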

Additional observations from a re-analysis of the deposited data

How the results depend on the processing

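Over 17 alternatives, Zfp143 kept its call and the median log2 fold change of the members stayed between -0.13 and 0.13, within 0.216, the standard deviation of the members' library median within groups, of the value reported. The FPKM as deposited, where the median of all genes was 0.11, gave 304 genes lower, 0 members called higher and 9 apart and higher, with Ndufs7 at 0.047. Quantile normalization gave 0 members called higher and 2 apart and lower. Without the variance trend, 0 members were called in either direction. The replicate block, by numbers not stated to mark the litter pairs, gave 191 genes called (85 higher, 106 lower) and 0 members in either direction. With each library left out, the genes called ranged from 223 to 2280 (84 to 1160 higher, 135 to 1120 lower). The members called ranged from 0 to 3 lower and from 0 to 2 higher, and the members apart from 1 to 18 lower and from 5 to 12 higher. The share of all tested genes apart was not counted in the alternatives. Groups come apart more easily with 1 library left out, so these counts are not a result about complex I. Among the genes given here with values in every library, the log2 fold changes that changed sign when a library was left out were all uncalled: Ndufs8 (-0.054 to 0.093) and Ndufb7 (-0.063 to 0.34). The covariate of complexes II to V, added after the data were seen, gave 4067 genes called (2095 higher, 1972 lower), with 4 members higher and 3 lower. The cause of these differences was not tested. In the fit reported above, with 3 libraries a group, the unadjusted 95% interval reached about 0.41 on the log2 scale to either side at the median member. Smaller changes could not be told from 0 in a typical member of that fit.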

Other observations

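The library pattern of Ndufs5 was looked for in other genes after its values had been seen. The cuts on gap and level were set then too, so the count does not measure how rare the pattern is. Of 7176 genes averaging 5 FPKM or more, 3 had the second and the third Znf143 -/- libraries below all 4 other libraries by more than 1.2 on the log2 scale, Ndufs5 (a gap of 1.45), Wdfy1 (1.51) and 2610035D17Rik (1.42). Wdfy1 had an FPKM of 8.46, 7.03 and 8.73 in Znf143 f/f and 6.29, 1.59 and 2.14 in Znf143 -/- libraries. 2610035D17Rik, an uncharacterised transcript, had 13.0, 8.33 and 12.4 against 5.33, 1.35 and 1.93. Both lay below the controls in the first Znf143 -/- library too, unlike Ndufs5. The genes next to Ndufs5, Akirin1 and Rhbdl2, had log2 fold changes of 0.18 (SE 0.211) and 0.38 (SE 0.359), with adjusted p of 0.660 and 0.574 from limma.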
